A study of Nicotiana tabacum with 6 samples.

Results

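Large-subunit ribosomal proteins are the protein shell of the bigger subunit of the ribosome, which joins amino acids into a chain. A plant cell builds ribosomes of its own type in the cytosol and others of bacterial type in chloroplasts and mitochondria, and nuclear genes encode most proteins of all of them. Cytosolic ribosomal protein genes are among the most strongly transcribed genes of growing tissue, usually in several near-identical copies, and tobacco carries copies from both of its parental genomes.

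The members are the gene models whose description holds "ribosomal protein L" followed by a digit, holds no small-subunit name, and whose mean abundance over the 6 libraries was at least 20. There were 283 of them, out of 694 models with such a description and 69500 models in all. Of the other 411 matching models, 165 were at 0 in every library. The members were thus chosen by measured level, the mean over all 6 libraries, which is a description and not a finding. No member was at 0 in any library. Just inside the limit stood an L17 model, Nitab4.5_0002399g0050, with a mean of 20.3, an L20 model, Nitab4.5_0004615g0060, with 20.4, and an L22/L17 model, Nitab4.5_0004796g0010, with 20.7. Just outside it stood an L1 model, Nitab4.5_0002914g0080, with 19.8, an L3 model, Nitab4.5_0003615g0010, and an L13 model, Nitab4.5_0006964g0020, both with 18.9.

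RNA was sequenced from young leaves of seedlings of Nicotiana tabacum, variety NC82, held at 4 °C for 24 h. The groups were 3 libraries from plants that overexpress NtPhyA, a phytochrome A gene, and 3 from wild-type plants of the same variety. Both groups were chilled, so the comparison is between plant materials and not a response to cold. The sources used here do not give the promoter of the transgene, the number of independent lines, or whether replicates came from separate plants. The p-values therefore measure library-to-library spread, part or all of which may be technical.

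Values are the authors' normalised abundances per gene model, with the unit (TPM or FPKM) not stated. They summed to 440137 to 475581 per overexpression library, against 450972 to 568208 per wild-type library, with wild-type replicate 3 the highest. The sources used here give no read totals. Relative depth, estimated from the most frequent ratio of low values between each library and wild-type replicate 1, differed by at most 1.33 times between libraries. The 5 models whose description names the phytochromes A to E summed to 2.86, 1.86 and 1.15 in overexpression replicates 1, 2 and 3, against 2.83, 1.70 and 1.33 in wild-type replicates 1, 2 and 3. No source says which model the transgene matches, so these sums do not check the labels. The leaf label was checked with 107 models of the Rubisco small subunit and of chlorophyll a/b-binding proteins, of which 93 were above 0 in some library. They summed to 38501, 23756 and 13864 in overexpression replicates 1, 2 and 3, against 29172, 15739 and 8239 in wild-type replicates 1, 2 and 3.

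The label of large-subunit proteins holds for most of the 283 models but not for all. The descriptions of 14 name another protein that shares a fold: 8 are the translation factor IF5A, 4 are NHP2, a subunit of the H/ACA particles that modify ribosomal RNA, and 2 are ClpS, an adaptor of the Clp protease. The other 269 fall into classes by their descriptions. The cytosolic type, named by a eukaryotic, archaeal or 60S tag or a family ending in e or a, had 162 models in 34 families. The organelle type, named by a bacterial or organellar tag or belonging to a family of bacterial ribosomes, had 50 models in 22 families. The description of 57 models in 12 families did not tell the types apart. Assigning bacterial families without a tag to the organelle type, and setting the 14 apart, was done after the descriptions were seen.

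Cytosolic-type members were the more abundant, with mean abundances from 20.7 to 453 and a median of 96.5. Organelle-type members ranged from 20.3 to 186 with a median of 46.2, and all tested models had a median of 6.10. Among the 37 families with at least 4 members, the most abundant copy stood 1.39 to 12.3 times above the least abundant one, with a median of 3.99. How the authors' counting divided reads between near-identical copies is uncertain, so family sums are given beside single models.

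No member passed the test between overexpression and wild type. With limma on log2(abundance + 1), fitted to all 17962 models with a mean of at least 1 and adjusted by Benjamini-Hochberg, 0 members were called lower and 0 higher, against 0% and 0.00557% of all tested models, and every member had an adjusted p of 0.999. At an unadjusted p below 0.05, limma gave 3 members with lower values and 0 with higher values in overexpression, against 1.35% lower and 1.47% higher over all tested models. In direction, 238 of the 283 members had a log2 difference below 0, lower in overexpression leaves, 84.1% against 51.7% of all tested models. The other 45 had one above 0, against 48.3%. Counts of lower and higher models go by this difference, which can differ in sign from the difference of mean abundances. The median log2 difference was -0.32 over the members and -0.01 over all tested models. All 3 overexpression libraries lay below all 3 wild-type libraries in 54 members, 19.1% against 3.86% of all tested models, and above them in 0 members, against 4.01%. In these bulk samples, fewer cells of a type and less RNA per cell cannot be told apart.

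The classes pointed in different directions. Of the 162 cytosolic-type members, 159 were lower in overexpression leaves, with a median log2 difference of -0.36. The groups did not overlap, towards lower values, in 33 of them, 20.4% against 3.86% of all tested models. Of the 50 organelle-type members, 36 were higher, with a median of 0.28. The groups did not overlap towards lower values in 1 of them, 2.0%, and towards higher values in 0, against 4.01% of all tested models. Of the 57 members not told apart, 51 were lower (median -0.37), without overlap towards lower values in 17, 29.8%. All 14 models of other proteins were lower too (median -0.29), without overlap in 3, 21.4%. No test of the difference between the classes was made.

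**Figure D1:**
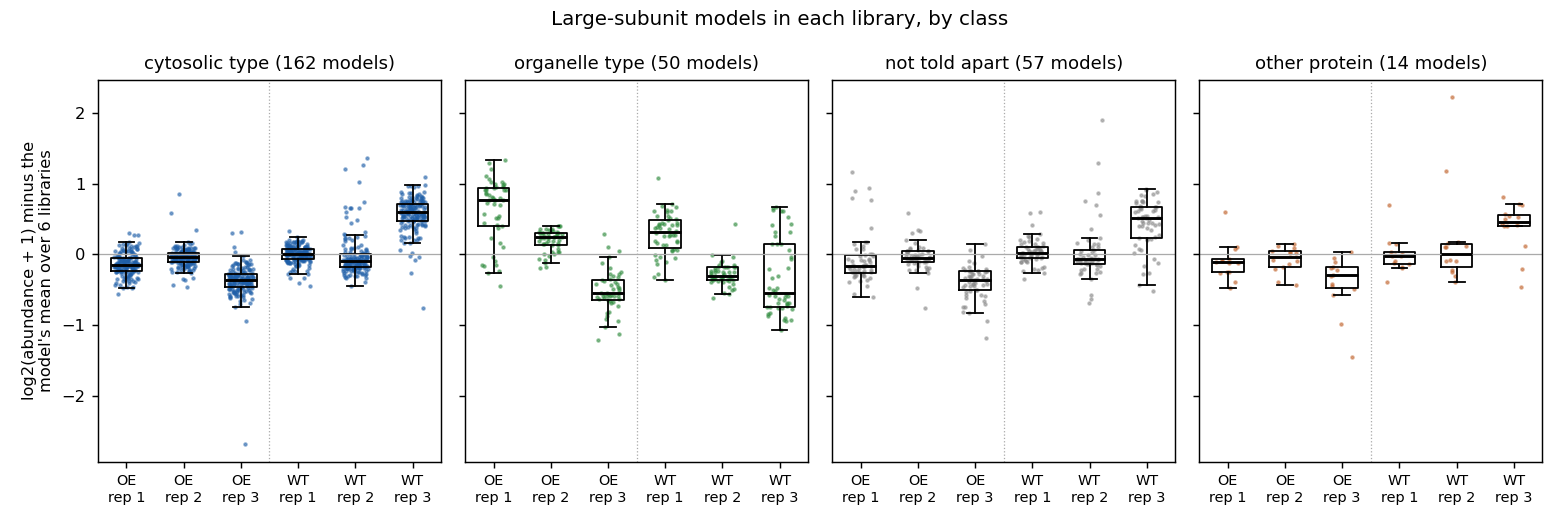
Log2(abundance + 1) of each model minus its own mean over the 6 libraries (points), with boxes for quartiles and whiskers to 1.5 interquartile ranges, for the 4 classes of members in overexpression (OE) and wild-type (WT) libraries. Wild-type replicate 3 is the highest library for 142 of the 162 cytosolic-type models, and overexpression replicate 1 for 39 of the 50 organelle-type models.

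The size of the cytosolic difference was set largely by 2 libraries. The 162 cytosolic-type members summed to 15670, 16735 and 13813 in overexpression replicates 1, 2 and 3, against 17259, 17816 and 27274 in wild-type replicates 1, 2 and 3. Overexpression replicate 3 was the lowest library of all for 122 of these members, and wild-type replicate 3 the highest for 142. Wild-type replicate 3 stood at 1.56 times the mean of the other two wild-type libraries in this sum. Its summed abundance over all models stood at 1.25 times theirs, and its median over all tested models at 1.00 times. Without it, 147 of 162 members were still lower, at a median of -0.13. Without both replicates numbered 3, 111 of 162 were lower, at a median of -0.05.

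As a share of each library's total, which needs no scaling between the authors' separate tables, all 283 members took 5.59%, 5.86% and 4.81% in overexpression replicates 1, 2 and 3. They took 6.00%, 6.32% and 6.96% in wild-type replicates 1, 2 and 3. The highest overexpression share was below the lowest wild-type share. The cytosolic-type members alone took 3.38 ± 0.29% in overexpression and 4.17 ± 0.56% in wild type (SD, n = 3 each), and the groups again did not overlap. The members not told apart took 1.04 ± 0.10% and 1.30 ± 0.12%, also without overlap. The organelle-type members took 0.688 ± 0.251% in overexpression and 0.547 ± 0.174% in wild type (SD, n = 3 each), with overlapping groups. No p is given for sums over members, which were chosen with earlier results of these data known.

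**Figure D2:**
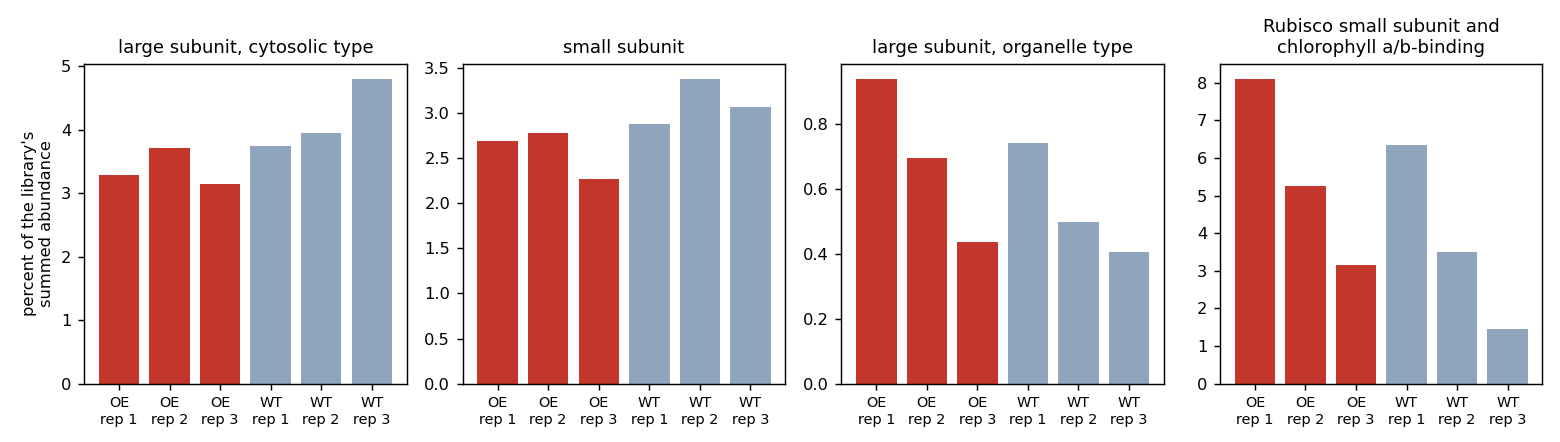
Percent of each library's summed abundance taken by cytosolic-type large-subunit members, abundant small-subunit models, organelle-type large-subunit members, and Rubisco small-subunit with chlorophyll a/b-binding models, 1 bar per library. The small-subunit models were taken by description text and not split by ribosome type. Other proteins that share a fold name were not set apart among them. Cytosolic-type shares lie between 3.14% and 3.71% in overexpression and between 3.75% and 4.80% in wild type, while organelle-type shares and leaf-marker shares overlap between groups.

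The stalk of the ribosome recruits the factors that drive translation. Its acidic proteins of the L12 family (P1 and P2) formed the most abundant family of ribosomal proteins among the members, with 8 models, all lower in overexpression leaves, whose descriptions do not tell the ribosome types apart. They summed to 1026, 1069 and 949 in overexpression replicates 1, 2 and 3, against 1108, 1115 and 2057 in wild-type replicates 1, 2 and 3. The groups did not overlap, and wild-type replicate 3 was far above the rest, so that the ratio of the group means of 0.711 became 0.913 without it. The leading model, Nitab4.5_0003532g0070, had 204, 208 and 161 in overexpression replicates 1, 2 and 3, against 228, 219 and 414 in wild-type replicates 1, 2 and 3 (log2 difference -0.53 ± 0.34, SE). P0 anchors these proteins at the base of the stalk. Its most abundant model, Nitab4.5_0000802g0160, had 258, 248 and 214 in overexpression, against 265, 527 and 291 in wild type, so that the groups did not overlap and wild-type replicate 2 stood alone. The next P0 copy, Nitab4.5_0001346g0030, had 247, 232 and 176 in overexpression, against 240.2, 218 and 236 in wild type, with overlapping groups.

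L11, at the base of the stalk beside P0, had 6 models without an organelle tag, and all of them had lower means in overexpression leaves. They summed to 459, 522 and 432 in overexpression replicates 1, 2 and 3, against 572, 520.5 and 871 in wild-type replicates 1, 2 and 3. The groups overlapped by the second overexpression library and the second wild-type library. These 6 copies were close in level, from 76.9 to 109.

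Proteins around the catalytic centre, organelle-type models aside, had lower means too, by unequal amounts. L2, which binds ribosomal RNA next to the peptidyl transferase centre, had 6 models without an organelle tag, all with lower means in overexpression leaves. They summed to 653, 688 and 539 in overexpression replicates 1, 2 and 3, against 699.6, 1240.1 and 905 in wild-type replicates 1, 2 and 3. Here the groups did not overlap, and the ratio was 0.661 with all libraries and 0.646 without wild-type replicate 3. L3, whose extension reaches towards the same centre, summed over its 3 models without an organelle tag to 182, 204 and 156 in overexpression, against 211, 192 and 216 in wild type, with overlap and a ratio of 0.875. The 2 organelle-type L3 models had higher means, with sums of 239, 158 and 85.8 in overexpression, against 184, 107 and 75.6 in wild type. L10e/L16, which lies near the bound tRNAs and is needed for the subunits to join in yeast, was the second family of ribosomal proteins in abundance. Its leading model, Nitab4.5_0002167g0010, had 272, 315 and 452 in overexpression replicates 1, 2 and 3, against 312, 395 and 503 in wild-type replicates 1, 2 and 3 (log2 difference -0.23 ± 0.33, SE). In this model the third replicate was the highest of each group, unlike in most cytosolic-type members, where overexpression replicate 3 was the lowest of its group (130 of 162).

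The tunnel through which the new chain leaves is lined by L4, L22/L17 and L39e and rimmed by L23/L25, L26/L24P, L29 and L31e. L4 had the smallest difference of the cytosolic-type families. Its 6 models summed to 303, 344 and 293 in overexpression replicates 1, 2 and 3, against 357, 334 and 338 in wild-type replicates 1, 2 and 3, a ratio of 0.914. Wild-type replicate 3 was not raised in L4. L39e was next, with sums of 265, 291 and 252 in overexpression, against 281, 257 and 357 in wild type, a ratio of 0.903 that became 1.00 without wild-type replicate 3. L22/L17 had 5 models and summed to 482, 507 and 394 in overexpression, against 494, 478 and 941 in wild type. Its groups overlapped, and wild-type replicate 3 was far above the other wild-type sums. L26/L24P behaved alike, at 674, 757 and 655 in overexpression, against 769.7, 692 and 1414 in wild type. Its leading model, Nitab4.5_0011675g0010, had 216, 232 and 211 in overexpression, against 234, 203 and 546 in wild type. L23/L25 differed more widely, at 249.5, 249.5 and 191 in overexpression, against 250.1, 349 and 462 in wild type, with no overlap by a narrow margin and a ratio of 0.650.

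L29 held both patterns within 1 family name. Of its 10 models, 7 were lower and 3 higher in overexpression leaves. The leading model, Nitab4.5_0008987g0040, had 118, 137 and 103 in overexpression replicates 1, 2 and 3, against 133, 127 and 229 in wild-type replicates 1, 2 and 3, with wild-type replicate 3 the highest. Nitab4.5_0000430g0130 had 92.3, 60.3 and 31.5 in overexpression, against 57.1, 29.1 and 38.8 in wild type, with overexpression replicate 1 the highest and its group widely spread. The description of L29 does not say which ribosome a model belongs to.

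The proteins that carry the 5S ribosomal RNA are L18/L5 of the eukaryotic type and the family named L5. The 4 models of eukaryotic L5 summed to 252, 239.7 and 190.2 in overexpression replicates 1, 2 and 3, against 243, 254 and 310.3 in wild-type replicates 1, 2 and 3, with overlap and a ratio of 0.844. The 6 models of the family named L5, without an organelle tag, summed to 284, 305 and 246 in overexpression, against 320.2, 595 and 441 in wild type. Those groups did not overlap, but 1 copy set the highest value: Nitab4.5_0007923g0020 had 68.8, 67.2 and 57.0 in overexpression, against 73.2, 355 and 98.3 in wild type. The other 5 copies summed to 215, 238 and 189 in overexpression, against 247, 239 and 342 in wild type, where wild-type replicate 2 no longer stood out.

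Bridges to the small subunit involve L19/L19e, L24e and L14b/L23e. L14b/L23e summed over 6 models to 702, 716 and 569 in overexpression replicates 1, 2 and 3, against 721, 754 and 1228 in wild-type replicates 1, 2 and 3, without overlap. L19/L19e had 880.4, 944 and 729 in overexpression, against 987, 888 and 1336 in wild type, with overlap. In L24e, which aids re-initiation on messages with upstream reading frames in Arabidopsis, 5 of 6 models were lower. One of its less abundant models, Nitab4.5_0000698g0010, was among the 3 with an unadjusted limma p below 0.05, at 20.5, 20.6 and 17.6 in overexpression, against 26.9, 28.4 and 36.6 in wild type (log2 difference -0.61 ± 0.24, SE; limma adjusted p = 0.999). Its groups did not overlap and no single library stood far from its group.

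The families found in cytosolic but not in bacterial ribosomes held the most abundant single model. Nitab4.5_0004848g0090, an L28e, had 367, 423 and 329 in overexpression replicates 1, 2 and 3, against 461, 397 and 739.5 in wild-type replicates 1, 2 and 3 (log2 difference -0.47, 95% confidence interval -1.25 to 0.32). The single L29e model, Nitab4.5_0000647g0070, had 288, 325 and 272 in overexpression, against 347, 293 and 572 in wild type. Both overlap between groups, with wild-type replicate 3 the highest library. L36e, whose 4 models lay close together at means of 204 to 285, summed to 833, 811 and 722 in overexpression, against 875, 1371 and 1435 in wild type, without overlap. Its copies Nitab4.5_0000080g0120 and Nitab4.5_0001951g0050 differed in wild type. The first had 233, 241 and 220.0 in overexpression, against 251, 378 and 384 in wild type, and the second had 207, 182 and 175 in overexpression, against 187, 573 and 323 in wild type.

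L38e, a small protein known in mice for its part in translating Hox messages, held the lowest single value of any member. Its model Nitab4.5_0013215g0010 had 23.1, 38.1 and 2.32 in overexpression replicates 1, 2 and 3, against 26.02, 34.99 and 31.2 in wild-type replicates 1, 2 and 3. The low library was overexpression replicate 3, and the other libraries of both groups overlapped. The abundant L38e copies had no such dip. Nitab4.5_0004325g0050 had 186, 171 and 147 in overexpression, against 206, 160 and 386 in wild type, and Nitab4.5_0006561g0010 had 145, 160 and 143 in overexpression, against 178, 179 and 319 in wild type.

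Of the zinc-binding families L37e, L37ae and L44e, L37e had the lowest ratio of any cytosolic-type family. Its 8 models, all lower in overexpression, summed to 746.5, 824.5 and 662 in overexpression replicates 1, 2 and 3, against 813, 1527 and 1447 in wild-type replicates 1, 2 and 3, a ratio of 0.590. The second overexpression library overlapped the first wild-type library. The leading model, Nitab4.5_0001315g0250, had 195, 196 and 162 in overexpression, against 186, 612 and 374 in wild type (log2 difference -0.92 ± 0.45, SE). Another of the 3 members with an unadjusted limma p below 0.05, Nitab4.5_0000664g0330, had 96.8, 96.6 and 85.5 in overexpression, against 106, 347 and 191 in wild type (log2 difference -1.04 ± 0.44, SE). In both models wild-type replicate 2 was the highest library. L44e showed the common pattern, at 414, 412 and 318 in overexpression, against 429.5, 371 and 659 in wild type.

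**Figure D3:**
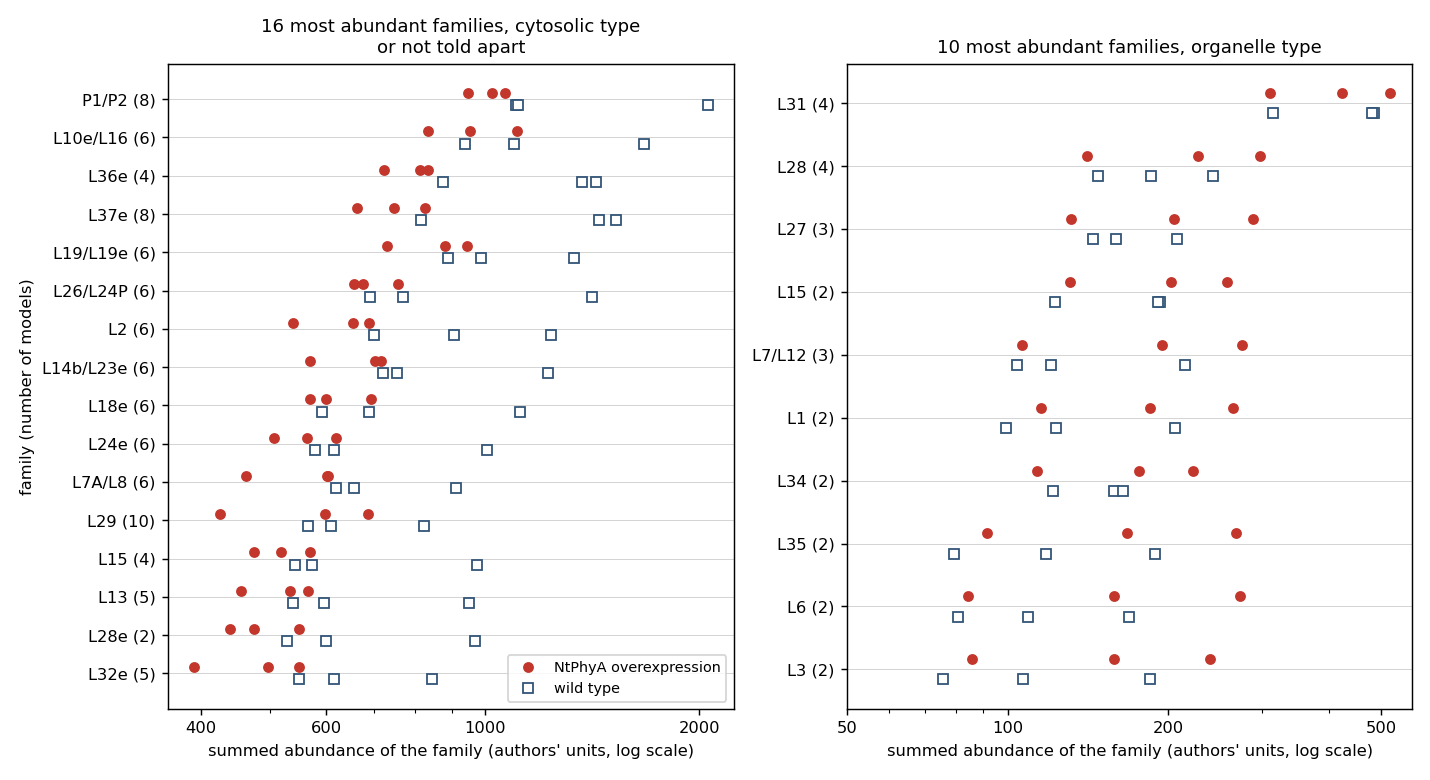
Summed abundance (authors' units, log scale) of each family in every library, with filled circles for NtPhyA overexpression and open squares for wild type, for the 16 most abundant families of cytosolic or unresolved type (left) and the 10 most abundant of organelle type (right). In the left panel many overexpression sums lie near or below the lowest wild-type sum, and 1 or 2 wild-type libraries often reach far above, as in P1/P2 at 2057. Some lie well above that lowest sum, as in L29 (686.5 in overexpression replicate 1 against 565) and L10e/L16 (1112 in overexpression replicate 3 against 940). In most organelle-type families the ranges of both groups lie over each other.

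Over whole families, all 34 cytosolic-type sums had a ratio of overexpression to wild type below 1, from 0.590 to 0.914. The groups did not overlap in 8 of the 34. Without wild-type replicate 3, 33 of the 34 ratios were below 1, the exception being L39e, and they ranged from 0.636 to 1.00. Wild-type replicate 3 had the highest sum in 32 of the 34 families and overexpression replicate 3 the lowest in 32. Of the 162 single models, 109 had a ratio of group means under 0.8 and 3 a log2 difference above 0, with values of 0.02 to 0.30. The 3 were in L24e, L31e and L30e, and each had a mean under 30.

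**Figure D4:**
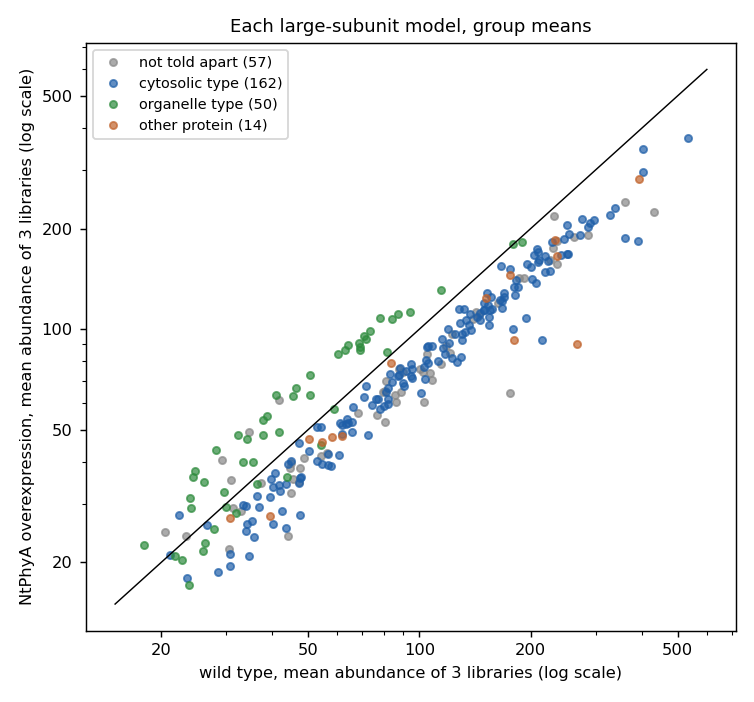
Mean abundance of each of the 283 models in the 3 overexpression libraries (vertical axis) against the 3 wild-type libraries (horizontal axis), both on log scales in the authors' units, coloured by class, with the line of equal values. Of the 162 cytosolic-type models, 161 lie below the line, and 37 of the 50 organelle-type models lie above it. By the log2 difference of the fit, 159 cytosolic-type models were lower and 36 organelle-type models higher.

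A few copies were far higher in wild-type replicate 2 than in any other library. In 9 members, wild-type replicate 2 was at least 1.5 times any other library, a limit chosen after the values were seen. They were in L37e, L36e, L2, L5, L7/L30, P0, IF5A and ClpS. The largest excess was in a ClpS model, Nitab4.5_0001599g0080, with 132, 94.99 and 45.0 in overexpression replicates 1, 2 and 3, against 124, 589 and 90.0 in wild-type replicates 1, 2 and 3. The other ClpS model had 37.9 in wild-type replicate 2, below its 74.0 in wild-type replicate 1. The L2 model Nitab4.5_0000092g0210 had 224, 246 and 204 in overexpression, against 249, 723 and 323 in wild type. The other 5 L2 copies summed to 429, 442 and 335 in overexpression, against 450.3, 517 and 582 in wild type. In L37e the other copies were raised there too, with the 7 copies beside Nitab4.5_0001315g0250 summing to 552, 628 and 500.3 in overexpression, against 628, 915 and 1074 in wild type. Wild-type replicate 3 exceeded every other library by 1.5 times in 83 members and overexpression replicate 1 in 8.

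Organelle-type members followed another order of libraries. The 50 models summed to 4457, 3128 and 1916 in overexpression replicates 1, 2 and 3, against 3406, 2238 and 2296 in wild-type replicates 1, 2 and 3. Overexpression replicate 1 was the highest library for 39 of them, and overexpression replicate 3 was the lowest of its group for 46. The spread within overexpression, a median SD of 0.65 on the log2 scale, was wider than the median difference between groups of 0.28, and compares with 0.18 for the cytosolic type. Without overexpression replicate 1 the median difference was -0.03, and it was 0.64 without overexpression replicate 3. It was 0.51, 0.19 and 0.12 without wild-type replicates 1, 2 and 3.

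The largest differences towards higher values among the members were all organelle-type. The L7/L12 model Nitab4.5_0009062g0010, of the bacterial-type stalk, had 110, 72.4 and 36.9 in overexpression replicates 1, 2 and 3, against 83.2, 42.6 and 25.4 in wild-type replicates 1, 2 and 3 (log2 difference 0.55 ± 0.54, SE). An L17 model, Nitab4.5_0000105g0390, had 62.8, 35.2 and 14.7 in overexpression, against 42.9, 17.7 and 13.5 in wild type. In both, the groups overlapped widely and the first replicate was the highest of each group. An L6 model, Nitab4.5_0001925g0020, had 101, 59.6 and 30.5 in overexpression, against 54.6, 40.1 and 28.4 in wild type. An L4 model, Nitab4.5_0000918g0030, had 74.8, 48.0 and 22.1 in overexpression, against 47.8, 29.1 and 19.7 in wild type, and an L24 model, Nitab4.5_0002342g0150, had 52.5, 33.99 and 21.6 in overexpression, against 29.5, 25.2 and 18.6 in wild type. The log2 differences of these 3 models were 0.48 to 0.51, with overlapping groups. The organelle-type L4 family had the highest ratio, 1.52, with sums of 151, 87.1 and 36.6 in overexpression, against 91.2, 52.7 and 37.3 in wild type. The cytosolic-type L4 family stood at 0.914, so the same named protein differed in direction by type, though neither pair of groups was separated.

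Not all organelle-type members shared that order. In 10 of them, wild-type replicate 3 was the highest library, as in the cytosolic type, and all 10 had lower means in overexpression. The organelle-type L20 models summed to 58.3, 60.3 and 67.2 in overexpression, against 59.4, 65.3 and 109 in wild type, and the organelle-type L2 models to 65.3, 67.9 and 59.3, against 66.0, 57.5 and 104 in wild type. In both families the overexpression libraries lay close together. The descriptions do not say which of these proteins are of the chloroplast and which of the mitochondrion.

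The leaf markers had a similar order of libraries to the organelle type. As a share of each library, the 107 models took 8.10%, 5.26% and 3.15% in overexpression replicates 1, 2 and 3, against 6.34%, 3.49% and 1.45% in wild-type replicates 1, 2 and 3. Organelle-type members took 0.937%, 0.693% and 0.435% in overexpression, against 0.740%, 0.496% and 0.404% in wild type. Both were highest in the first replicate and lowest in the third replicate of each group. At each replicate number, both shares were higher in overexpression than in wild type. In summed abundance, however, organelle-type members were lower in overexpression replicate 3 (1916) than in wild-type replicate 3 (2296). Whether same-numbered libraries are paired is not known. Of the 71 tested leaf-marker models, 59 were higher in overexpression leaves at a median log2 difference of 0.41, which was -0.09 with overexpression replicate 1 left out and -0.02 with wild-type replicate 3 left out. Markers of dividing cells, 130 core histone models of which 113 were above 0, took 0.855%, 0.612% and 0.606% of the library in overexpression replicates 1, 2 and 3, against 0.548%, 0.496% and 0.519% in wild-type replicates 1, 2 and 3, without overlap. Of the 78 tested, 63 were higher at a median of 0.40, which stayed between 0.28 and 0.48 with any 1 library left out. All overexpression libraries lay above all wild-type libraries in 16 of them, 20.5% against 4.01% of all tested models, and limma called none. The dividing-cell list thus differed in the direction opposite to the cytosolic-type members. The 160 terpene synthase models, used for glandular trichomes, summed to 373 to 1052 in overexpression, against 320 to 614 in wild type, and 71 of them were at 0 in all libraries. Of the 20 tested, 16 were higher at a median of 0.53, which was 0.20 without overexpression replicate 3. The part of these cells in the ribosomal protein values was not tested.

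Models with a small-subunit name in their description, not split by ribosome type, pointed the same way as the cytosolic-type members. Other proteins that share a fold name were not set apart in this small-subunit list. Its largest log2 difference, 1.98, was also the largest among elongation factors, so the 2 lists may share a model. Of 141 models on the small-subunit list with a mean of at least 20, 117 were lower in overexpression leaves at a median log2 difference of -0.31. The groups did not overlap towards lower values in 31 of the 141, 21.99% against 3.86% of all tested models. The median was -0.14 without wild-type replicate 3, and -0.05 with 85 of 141 lower without both replicates numbered 3. They took 2.69%, 2.78% and 2.27% of the library in overexpression replicates 1, 2 and 3, against 2.87%, 3.37% and 3.07% in wild-type replicates 1, 2 and 3. The ratio of all large-subunit members to these models was 2.08, 2.11 and 2.12 in overexpression, against 2.09, 1.87 and 2.27 in wild type. This ratio varied less among overexpression libraries (SD 0.0210) than among wild-type libraries (SD 0.199). Its means of 2.10 in overexpression and 2.08 in wild type differed by less than the SD within wild type. It pools all classes of members. With cytosolic-type members alone, the ratio was 1.23, 1.33 and 1.38 in overexpression (SD 0.0808), against 1.31, 1.17 and 1.56 in wild type (SD 0.200). The 103 tested large-subunit models below the abundance limit had a median of -0.24, with 83 lower.

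Other parts of the translation machinery had smaller medians or the opposite sign. Initiation factors, which load the ribosome on a message, had 56 of 79 tested models lower at a median of -0.13. Ribosome assembly factors had 27 of 49 lower at a median of -0.03. Elongation factors had 26 of 85 lower at a median of 0.10, and aminoacyl-tRNA synthetases, which charge tRNAs and include organelle enzymes, had 14 of 71 lower at a median of 0.20. These medians depended on wild-type replicate 3. Without it, elongation factors had 47 of 85 lower at a median of -0.05, synthetases had 33 of 71 lower at 0.04 and initiation factors had 44 of 79 lower at -0.03. The assembly factors' median lay between -0.06 and 0.04 with any 1 library left out. No model of any of these lists was called by limma over all models. At an unadjusted p below 0.05, limma gave 0 initiation factors, 1 elongation factor and 1 tRNA synthetase with higher values, and 1 assembly factor with lower values. Over all tested models the shares at this limit were 1.47% higher and 1.35% lower, so these single models are not read as results about the lists.

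Of the 14 models of other proteins, those of IF5A and NHP2 had wild-type replicate 3 as the highest library of their sums, as most cytosolic-type families had. IF5A, which helps the ribosome through proline runs, summed over 8 models to 1112.5, 1128 and 1067 in overexpression replicates 1, 2 and 3, against 1209, 1410.3 and 1829.5 in wild-type replicates 1, 2 and 3, without overlap. Its leading model, Nitab4.5_0000141g0010, had 275, 285 and 288 in overexpression, against 338, 309 and 533 in wild type (log2 difference -0.43 ± 0.31, SE). NHP2 summed over 4 models to 163, 196 and 147 in overexpression, against 186, 185 and 269.9 in wild type, with overlap. The 2 ClpS models had another order, with sums of 201, 144 and 67.4 in overexpression, against 198, 627 and 129 in wild type, where wild-type replicate 3 was the lowest of its group. With these 14 left out, the other 269 members had a median of -0.32.

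The smallest unadjusted p of any member belonged to a model described only as L7Ae/L8/Nhp2, Nitab4.5_0000362g0170, which may be a ribosomal or an H/ACA protein. It had 24.4, 18.5 and 29.2 in overexpression replicates 1, 2 and 3, against 32.1, 54.7 and 45.1 in wild-type replicates 1, 2 and 3 (log2 difference -0.83, 95% confidence interval -1.54 to -0.13). The groups did not overlap. Among the other members with the smallest p were an L23/L25 model, Nitab4.5_0004851g0040, an L30e model, Nitab4.5_0006678g0020, an L14e model, Nitab4.5_0000326g0220, an L29 model, Nitab4.5_0000914g0220, an L37e model, Nitab4.5_0007758g0090, and a pair of L18a models, Nitab4.5_0001655g0060 and Nitab4.5_0005219g0100. Their unadjusted limma p lay between 0.0523 and 0.0689 and their log2 differences between -0.79 and -0.61. All of them had lower means in overexpression.

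**Figure D5:**
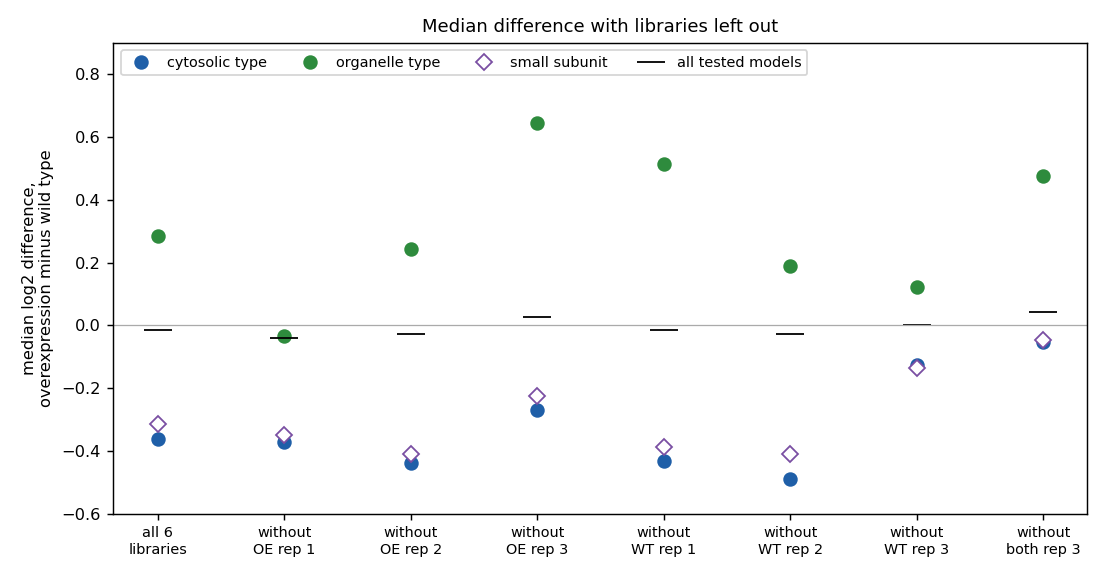
Median log2 difference, overexpression minus wild type, with all 6 libraries and with libraries left out. The sets are cytosolic-type members, organelle-type members, all tested models and abundant small-subunit models (not split by ribosome type, other proteins not set apart). The cytosolic median lies at -0.36 with all libraries, -0.13 without wild-type replicate 3 and -0.05 without both replicates numbered 3, and the organelle-type median reaches -0.03 without overexpression replicate 1.

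Within overexpression the cytosolic-type members were tighter than within wild type, with median SDs of 0.18 and 0.40 on the log2 scale (n = 3 each), against 0.38 and 0.40 over all tested models. Wild-type replicate 3 stood apart in its group: its cytosolic-type values stood at a median of 1.53 times those of wild-type replicate 1. Wild-type replicate 2 stood at 0.922 times replicate 1 by the same measure. Without wild-type replicate 3, all overexpression libraries lay below both remaining wild-type libraries in 56 of the 283 members, 19.8% against 6.20% of all tested models, and above them in 3 members, 1.06% against 7.39%.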

How the data were processed

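RNA-seq abundances from 6 libraries were used. The deposited values are a normalised abundance per gene model in 1 table per plant material. The submitters' processing notes name StringTie, RSEM and HISAT2. No tool version, unit or genome build was found in the sources used here. Nothing says that the 2 tables were normalised together. No gene symbols, coordinates or sequences came with the models. The authors' group means were not used.

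Values were transformed to log2(value + 1), which understates differences of low models, and fitted by group with limma 3.58.1 in R 4.3.3 (trend and robust options) over 17962 models with a mean of at least 1. Calls used a Benjamini-Hochberg adjusted p below 0.05, and differences are overexpression minus wild type. The fit was tested on simulated data. Sums, shares and figures were made in Python 3.11.15.

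Members and lists were chosen with earlier results of these data known. Named models were the 10 most abundant members, the 10 with the smallest p, the 5 with the largest higher values, those nearest the abundance limit and the leading model of families. Copies compared within a family, the models high in 1 library and the families given by role were picked after their values were seen. Alternatives were a pseudocount of 0.1, other filters, 5 scalings (1 added later), a replicate block, other abundance limits and libraries left out.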

Additional observations from a re-analysis of the deposited data

How the results depend on the processing

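The count of members called stayed at 0 in both directions under every alternative run. The count of lower members stayed between 161 and 257 of 283. The median log2 difference of the members, -0.32, ranged from -0.43 to -0.12 (without wild-type replicate 3) when 1 library was left out, and was -0.0245 without both replicates numbered 3. The other scalings gave -0.36 to -0.16, the value of -0.16 under quantile normalization, and moved the median of all tested models by less than 0.1. With abundance limits of 10 and 50 the median was -0.31 and -0.34. The share of the members, overexpression minus wild type in percentage points, ranged from -1.23 to -0.70 with 1 library left out and was -0.43 without both replicates numbered 3, against -1.01 with all. The ratio of large to small subunit differed by 0.03, and ranged from -0.0774, a reversal without wild-type replicate 2, to 0.12. The organelle-type median of 0.28 ranged from -0.0349, a reversal without overexpression replicate 1, to 0.64. The cause of these shifts was not tested.

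Same-numbered replicates of both groups deviated from their group means with correlations of 0.56, -0.11 and 0.42. These correlations do not settle whether the numbers pair the libraries, and the main fit did not pair them. Over all tested models, every library correlated best with a library of the other group, though not always with the one of its own number. These best correlations ranged from 0.908 (wild-type replicate 3 with overexpression replicate 3) to 0.948 (overexpression replicate 2 with wild-type replicate 1). By this measure the libraries did not group by plant material. With the replicate number as a block, the median stayed at -0.32, 0 members were called, and 7 had an unadjusted p below 0.05, against 3 without it.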
